A study of Mus musculus with 11 samples.

Results

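Ly6 proteins are small surface proteins that share a cysteine-rich fold, and most are held in the outer leaflet of the plasma membrane by a glycosylphosphatidylinositol (GPI) anchor. Stem cell antigen 1 (Sca-1), encoded by Ly6a, is widely used to sort stem and progenitor cells and is also present on mouse endothelium. Ly6c1 and Ly6c2 encode the Ly6C antigens, the first known from endothelium and the second from monocytes, Ly6e encodes an interferon-inducible protein that acts against several viruses, Ly6h is mainly a gene of the nervous system, and Gpihbp1 encodes the protein that carries lipoprotein lipase to the luminal side of capillaries. These 6 genes, out of 55359 with deposited counts, were taken by name, matched through the GENCODE annotation. The group was selected on the contrast between oncostatin M (OSM) and PBS, because Ly6a and Ly6c1 had some of the lowest p-values in it. For that contrast their values are therefore given as a description.

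RNA was sequenced from CD31-positive, CD45-negative endothelial cells sorted at P17 from C57BL/6 pups in the oxygen-induced retinopathy (OIR) model, in which high oxygen followed by room air leads to pathological vessel growth. The pups had received an intravitreal injection of 0.5 µL at P12, either OSM at 100 ng/µL (5 mice) or PBS (6 mice), and all of them had gone through OIR. No unmanipulated group was analysed here. Of 3 litters, the first (mice 1 to 4) and the second (mice 5 to 8) held 2 mice of each treatment, and the third held OSM-treated mouse 9 with PBS-treated mice 10 and 11. Each litter was 1 OIR run, so litter and run cannot be told apart. A sample holds both retinas of 1 mouse. The labels give 1 treatment per mouse, while the methods speak of PBS in contralateral eyes, and whether a sequenced OSM mouse carried PBS in the other eye is not given in the sources used here. Between 26697990 and 56033479 reads per mouse were counted on genes, with the highest total in OSM-treated mouse 9. Levels are given as CPM, the counts of a gene relative to the library total, with TMM scaling between libraries. The sorted cells held the endothelial markers, and Pecam1, which encodes CD31, was at 1331 ± 266 CPM (SD, n = 11). Ptprc, which encodes CD45, had no more than 22 reads in any mouse, and Cd3d had none. Other leukocyte genes were not absent. Laptm5 and Coro1a had reads in all 11 mice, with means of 46.54 and 27.96 CPM. Lyz2 had 2140 reads in PBS-treated mouse 4, 436 in PBS-treated mouse 3 and at most 161 in any other mouse.

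All 6 genes lie within 644.5 kb of chromosome 15 (GRCm39). From one end to the other these are Ly6e (ENSMUSG00000022587, plus strand, chr15:74826860-74847454), Ly6a (ENSMUSG00000075602, minus strand, chr15:74863840-74869880), Ly6c1 (ENSMUSG00000079018, minus strand, chr15:74915847-74920686), Ly6c2 (ENSMUSG00000022584, minus strand, chr15:74980003-74988467), Ly6h (ENSMUSG00000022577, minus strand, chr15:75424894-75439354) and Gpihbp1 (ENSMUSG00000022579, plus strand, chr15:75468474-75471331). Another 24 counted genes lie between them, of which 5 are protein coding: Ly6i, Ly6g, Ly6g2, Ly6f and Ly6l. Of the 24, 16 had no read in any mouse. The highest total was that of Ly6i, with 160 reads over all mice and at most 63 in 1 mouse. In these cells the interval was therefore read almost entirely from Ly6e, Ly6a, Ly6c1 and Gpihbp1.

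Ly6c1 and Ly6c2 are near-identical copies, which bears on how their reads can be assigned. Their coding sequences of 393 bases each were identical at 384 positions (97.7%), and Ly6a shared 83.7% of aligned coding bases with Ly6c1. The first 120 coding bases, printed to show where the transcripts can be told apart, run over 2 coding exons on the minus strand: chr15:74868368-74869453 for Ly6a, chr15:74919269-74920360 for Ly6c1 and chr15:74982427-74983516 for Ly6c2. Capitals mark bases that differ from Ly6c1, 8 in Ly6a and 6 in Ly6c2.
Ly6c1: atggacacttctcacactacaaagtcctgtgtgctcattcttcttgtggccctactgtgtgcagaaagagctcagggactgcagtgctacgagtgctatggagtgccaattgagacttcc
Ly6a: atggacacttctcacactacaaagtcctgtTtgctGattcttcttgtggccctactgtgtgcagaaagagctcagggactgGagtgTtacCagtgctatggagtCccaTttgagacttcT
Ly6c2: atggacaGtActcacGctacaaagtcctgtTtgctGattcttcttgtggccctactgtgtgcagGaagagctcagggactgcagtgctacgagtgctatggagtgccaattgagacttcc
Thus 6 of the 9 differences between Ly6c1 and Ly6c2 fall in this first stretch. The second of these coding exons, whose first part closes the printed bases, shows the opposite case. Its 117 bases were the same in Ly6c1 (chr15:74919202-74919318) and Ly6c2 (chr15:74982360-74982476), so a 50-base read from within it fits both genes equally well.
Ly6c1 and Ly6c2, shared exon: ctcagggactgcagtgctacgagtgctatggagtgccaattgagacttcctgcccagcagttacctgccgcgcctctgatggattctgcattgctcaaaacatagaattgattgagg
Over the exons of each gene, including untranslated parts, every window of 50 bases was looked up in the genome on both strands. Windows found only once made up 99.9% for Ly6e, 80.0% for Ly6a, 56.2% for Ly6c1, 57.5% for Ly6c2 and 100% for both Ly6h and Gpihbp1. Ly6c1 had 3109 windows, of which 1046 were also present in Ly6c2. Reads that map to several places are left out at the standard settings of featureCounts, so counts of Ly6c1, Ly6c2 and, less so, Ly6a rest on part of their exons. In addition, 223 exon bases of Ly6a are shared with the opposite-strand gene Gm28068, which had 2 reads in all, and the library kit keeps no strand.

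**Figure D1:**
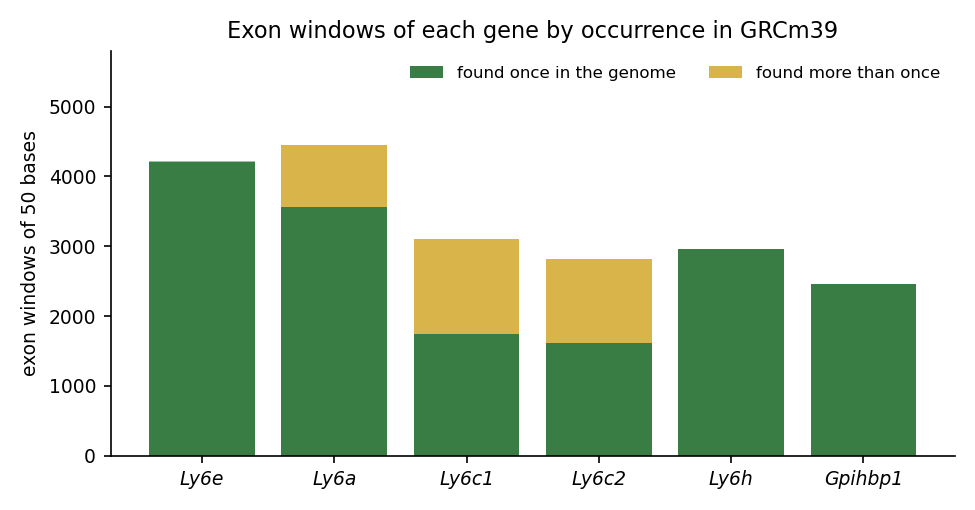
Number of 50-base windows in the merged exons of each gene (y axis), split into windows found once (green) and more than once (yellow) in the mouse genome. Ly6e, Ly6h and Gpihbp1 are almost all green, whereas 56.2% of the Ly6c1 windows and 57.5% of the Ly6c2 windows were found once.

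Ly6e was the most abundant of the 6 genes, followed by Ly6c1, Ly6a and Gpihbp1, while Ly6c2 and Ly6h were close to the limit of detection. This order was not used to choose the genes and was examined on levels divided by exon length (CPM per kb). Ly6e was at 390.5 ± 65.9 CPM per kb (SD, n = 11 mice) and held place 44 among the 16962 tested genes with a length. Ly6c1 was at 146.1 ± 33.2 CPM per kb (SD, n = 11) and held place 186. Ly6a was at 87.7 ± 19.8 CPM per kb (SD, n = 11), place 370, and Gpihbp1 at 27.0 ± 7.84 CPM per kb (SD, n = 11), place 1412. For comparison, on the same scale Pecam1 was at 133.1, Cdh5, the junctional cadherin of endothelium, at 90.4, and Cldn5, the tight-junction claudin of the blood-retina barrier, at 3317 CPM per kb. The level of Ly6c1 depended strongly on the length used, with 276.3 CPM per kb over windows found once in the genome and 443.7 over the canonical transcript, while Ly6a had 114.4 and 109.9 in the same order.

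Each neighbouring pair in this order was compared within mice (exact two-sided sign-flip permutation test over 11 mice, adjusted over 5 pairs). The mean log2 difference was 1.43 ± 0.20 (SD) between Ly6e and Ly6c1, 0.73 ± 0.22 between Ly6c1 and Ly6a, and 1.72 ± 0.59 between Ly6a and Gpihbp1. Gpihbp1 stood above Ly6c2 by 8.32 ± 1.19 on the log2 scale. Each of these pairs had the same order in 11 of 11 mice (exact permutation test, adjusted p = 9.77e-04, the smallest that 11 mice allow). Ly6c2 and Ly6h could not be told apart in every mouse: Ly6c2 had 1 read in mice 3 and 4, where Ly6h had 0, and 10 reads in mouse 8, where Ly6h had 9. No order is read for this pair. The size of the step depended on the length used. With the Ensembl canonical transcript, Ly6a was above Gpihbp1 by a mean of 0.43 (exact permutation test, adjusted p = 0.0342), though not in every mouse. With the same length, Ly6c1 was above Ly6a by a mean of 2.01.

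**Figure D2:**
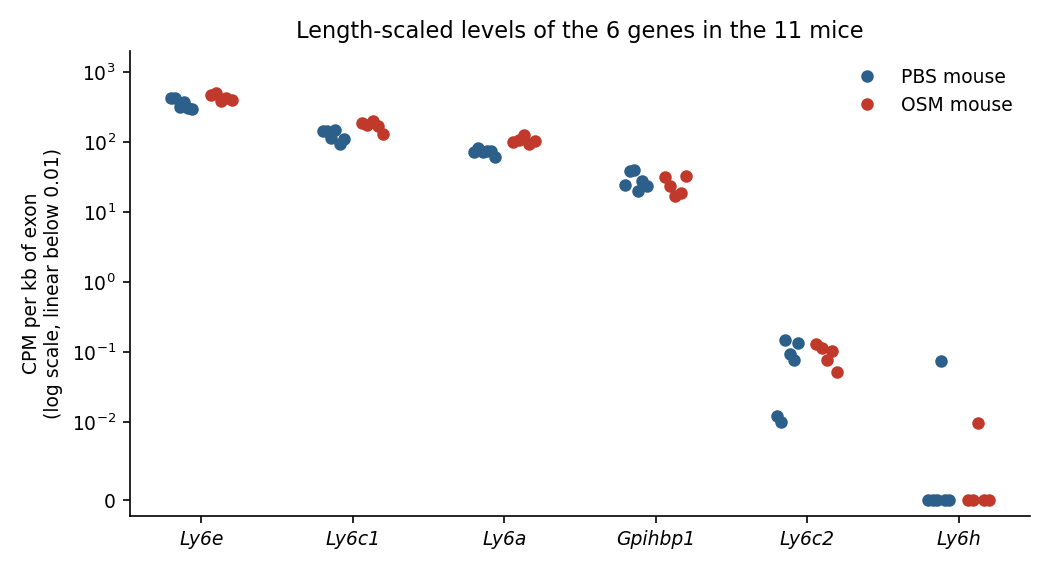
Level of each gene in CPM per kb of exon (y axis, log scale that turns linear below 0.01), with 1 point per mouse, PBS in blue and OSM in red. Ly6e, Ly6c1, Ly6a and Gpihbp1 lie between 16.7 and 501.8 in all mice, Ly6c2 lies at or below 0.15, and Ly6h is at 0 in all but 2 mice.

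Ly6a transcripts were higher in every OSM-treated sample than in any PBS-treated sample. The 5 OSM-treated samples, mice 1, 2, 5, 6 and 9, were at 462.3, 497.0, 592.0, 434.6 and 472.1 CPM. The 6 PBS-treated samples, mice 3, 4, 7, 8, 10 and 11, were at 336.9, 379.4, 334.8, 348.4, 339.5 and 283.3 CPM. The groups did not overlap, and the lowest OSM-treated sample, mouse 6, was above the highest PBS-treated sample, mouse 4. Such separation was seen in 31 of the 17050 genes tested (0.182%), a share from which nothing is read for Ly6a because this contrast selected it. The means were 491.6 ± 60.4 CPM (SD, n = 5) after OSM and 337.1 ± 31.0 CPM (SD, n = 6) after PBS, a ratio of 1.46. With litter in the model, edgeR gave a log2 fold change of 0.53 (SE 0.095), rank 2 by p among all genes tested. It was not called after adjustment over all genes (edgeR, adjusted p = 0.955).

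Ly6c1, the endothelial Ly6C gene, was higher in OSM-treated samples within each litter, but the groups overlapped across litters. The OSM-treated samples, in the same order of mice, were at 624.4, 571.5, 651.0, 559.5 and 431.5 CPM. The PBS-treated samples were at 466.6, 473.4, 374.4, 482.2, 308.4 and 367.4 CPM. Mouse 9, the only OSM-treated sample of litter 3, fell among the PBS-treated samples of litters 1 and 2 and above both of its own litter. The means were 567.6 ± 84.8 CPM (SD, n = 5) and 412.0 ± 71.9 CPM (SD, n = 6), a ratio of 1.38. The log2 fold change of Ly6c1 was 0.41 (SE 0.089; edgeR, rank 10, adjusted p = 0.955).

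Ly6e had the smallest difference of the 3 in fold, on the highest level. The OSM-treated samples were at 2116, 2284, 1766, 1907 and 1810 CPM. The PBS-treated samples were at 1916, 1913, 1446, 1684, 1371 and 1343 CPM. Only mice 1 and 2 were above every PBS-treated sample, because both PBS-treated samples of litter 1 were as high as the OSM-treated samples of the other litters. The means were 1977 ± 219 CPM (SD, n = 5) and 1612 ± 263 CPM (SD, n = 6), a ratio of 1.23, with a log2 fold change of 0.27 (SE 0.064; edgeR, rank 20, adjusted p = 0.955).

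Gpihbp1, the carrier of lipoprotein lipase, had a mean in the other direction, within the spread between mice. Its OSM-treated samples were at 81.8, 59.7, 42.8, 47.3 and 84.5 CPM. Its PBS-treated samples were at 61.4, 98.7, 100.9, 51.0, 71.3 and 59.7 CPM. The groups overlapped over most of their range: both OSM-treated samples of litter 2 were below every PBS-treated sample, and no OSM-treated sample was above all of them. The means were 63.2 ± 19.3 CPM (SD, n = 5) and 73.8 ± 21.1 CPM (SD, n = 6), and the log2 fold change was -0.25 (SE 0.24; edgeR, rank 5212, adjusted p = 1).

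**Figure D3:**
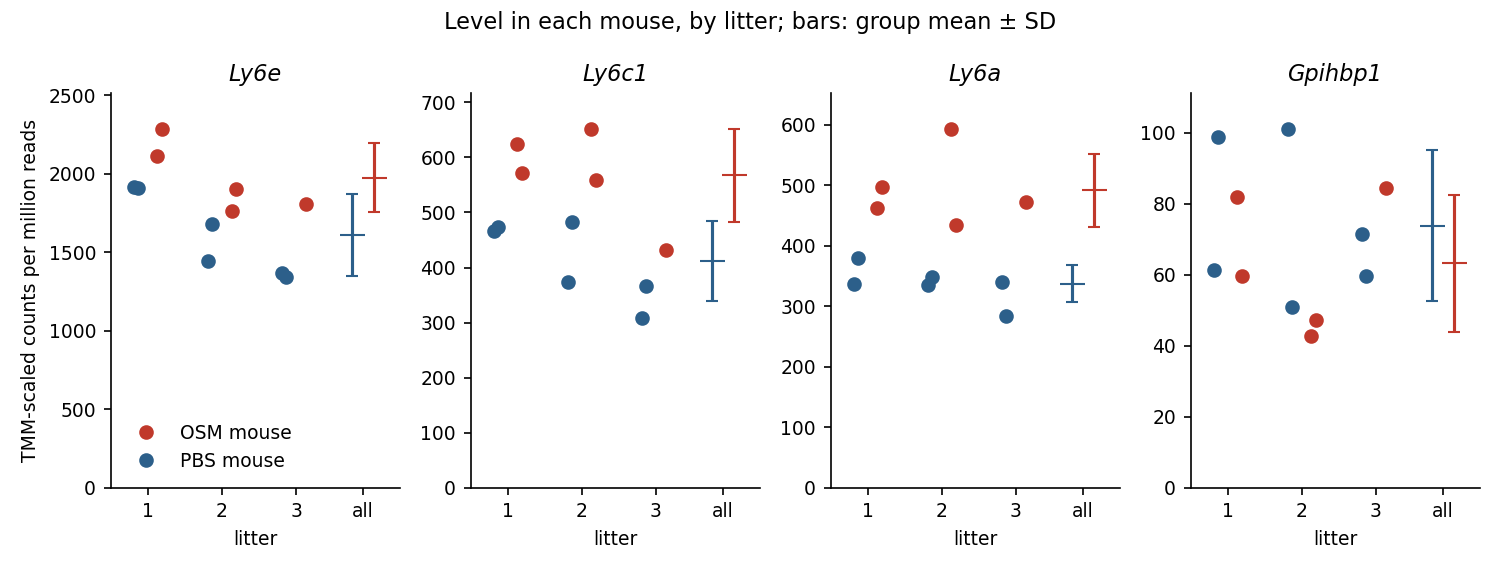
TMM-scaled CPM (y axis, from 0) of the 4 abundant genes in each mouse, arranged by litter, with PBS in blue and OSM in red. Bars on the right of each panel give the group mean and SD (n = 6 PBS, n = 5 OSM). In Ly6e, Ly6c1 and Ly6a every red point lies above the blue points of its litter. In Gpihbp1 red and blue points are mixed in litter 1, red lies below blue in litter 2 and above blue in litter 3.

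Ly6c2, the monocyte-type Ly6C gene, had 1 to 15 reads per mouse and 99 in all, against 179310 reads of Ly6c1. That is 0.0552 reads of Ly6c2 per 100 of Ly6c1, and between 0.00661 and 0.123 in single mice. Its levels were 0.293 ± 0.095 CPM (SD, n = 5) after OSM and 0.243 ± 0.181 CPM (SD, n = 6) after PBS. The groups overlapped, and both lowest samples, mice 3 and 4 with 1 read each, were PBS-treated samples of litter 1. Its log2 fold change of 0.73 has an SE of 1.42 (edgeR, rank 10255, adjusted p = 1), so a difference was not detectable at this depth. Since reads common to both copies are left out, these are reads from the parts of Ly6c2 in which it differs from Ly6c1, and whether any of them come from Ly6c1 transcripts was not tested.

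Ly6h transcripts were practically absent from the counts. There were 9 reads in PBS-treated mouse 8, 1 read in OSM-treated mouse 5 and 0 reads in the other 9 mice, where a count of 0 allows up to 3 reads, or 0.0535 to 0.112 CPM depending on the mouse. The gene did not pass the filter on low counts, so 5 of the 6 genes were tested, and no fold is given for it. The intervals implied by such floors cover counting error only, as PCR copies were not collapsed.

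Within litters, Ly6a, Ly6c1 and Ly6e were each higher in OSM-treated samples in 3 of 3 litters, and every OSM-treated sample was above every PBS-treated sample of its litter. Such separation within every litter was seen in 151 of the 17050 genes tested (0.886%). Nothing is read from it for the members, because the same contrast selected the group. From the first litter to the third, the log2 differences of Ly6a were 0.42, 0.57 and 0.61. Those of Ly6c1 were 0.35, 0.51 and 0.36, and those of Ly6e were 0.20, 0.23 and 0.42. Gpihbp1 was lower after OSM in litters 1 and 2, by -0.16 and -0.67, and higher in litter 3, by 0.37. Litter 3 has a single OSM-treated sample, so its differences carry no spread within that group.

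**Figure D4:**
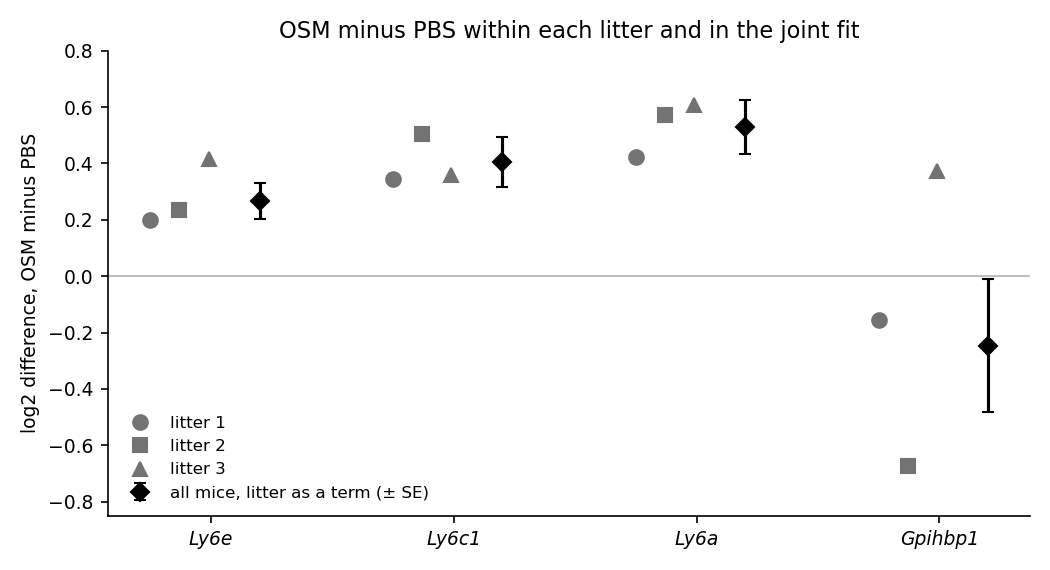
Log2 difference of OSM minus PBS (y axis) within litters 1, 2 and 3 (grey symbols) and from the fit of all mice with litter as a term (black, ± SE). Ly6e, Ly6c1 and Ly6a lie between 0.20 and 0.61 in all litters, whereas Gpihbp1 runs from -0.67 to 0.37.

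Whether these differences varied among litters was tested with an interaction of treatment and litter, on which the genes had not been selected. No gene was called among 17050 (0 genes by edgeR, 0.0%, and 1095 genes, or 6.42%, at an unadjusted p under 0.05). For Ly6a the interaction had an adjusted p of 0.998, for Ly6c1 of 1, for Ly6e of 0.880, for Gpihbp1 of 0.798 and for Ly6c2 of 0.853 (edgeR). With 1 OSM-treated sample in litter 3 this test is weak, and it does not show that the differences were alike.

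Among the 4 abundant genes, Ly6e and Ly6c1 had the largest litter terms. Ly6e had a mean of 2057 CPM in litter 1, 1701 CPM in litter 2 and 1508 CPM in litter 3. Ly6c1 had means of 534.0, 516.7 and 369.1 CPM in the same order. Litter means here pool both treatments, and litter 3 holds 1 OSM-treated and 2 PBS-treated samples, so treatment enters them unequally. PBS-treated samples alone had means of 1914, 1565 and 1357 CPM for Ly6e, and of 470.0, 428.3 and 337.9 CPM for Ly6c1. The litter term, given treatment, reached an unadjusted p under 0.05 in edgeR for both genes, as it did for 1758 of all genes tested (10.3%). Neither was called over all genes (edgeR, adjusted p = 0.113 for Ly6e and 0.207 for Ly6c1), as were 3 of 17050 genes (0.0176%). DESeq2's likelihood ratio test called both (adjusted p = 3.88e-05 for Ly6e and 0.00809 for Ly6c1), and edgeR called Ly6e when low counts were not filtered out (adjusted p = 0.0409). Ly6a had litter means of 418.9, 427.5 and 365.0 CPM (edgeR, litter term, adjusted p = 0.869), and Gpihbp1 of 75.4, 60.5 and 71.8 CPM (edgeR, adjusted p = 0.861).

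The number of calls in the treatment contrast depended on the test and on the filter. edgeR called 0 of 17050 genes (0.0%), and Ly6a, Ly6c1 and Ly6e were 3 of 384 genes (2.25%) that were higher with an unadjusted p under 0.05, against 462 genes (2.71%) that were lower. The Wald test of DESeq2 on an unfiltered table, again with litter in the model, called 168 of 22014 genes (0.763%), and these included Ly6a (adjusted p = 1.50e-04), Ly6c1 (adjusted p = 0.00685) and Ly6e (adjusted p = 0.00805). Ly6c2 and Gpihbp1 were not called by DESeq2 (adjusted p = 0.981 for both). In edgeR, Ly6a was called when low counts were not filtered out (adjusted p = 0.00804). As the contrast chose the genes, these calls describe them and lend them no further weight.

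The wider Ly6/uPAR family was represented by few genes. Of 45 family genes with counts, 17 had no read in any mouse and 9 had reads in all 11 mice. Ly6e, Ly6c1 and Ly6a together made up 92.0% of the summed CPM of the family. Of the other 13 tested genes, 5 were higher and 8 lower, none was called, and the median was -0.42 (log2 fold change), beside a median of -0.01 over all genes tested. The sign of this median depended on the processing. It was 0.14 over the family genes with at least 10 counts in every mouse, and 0.06 without a litter term, so no direction is read for the family. Most of these 13 had reads in only some of the mice. Those with reads in all 11 mice were Plaur, the urokinase receptor gene, at 72.2 CPM with a log2 fold change of 0.03 (SE 0.20), Cd59a, which encodes an inhibitor of complement lysis, at 66.7 CPM with 0.27 (SE 0.17), Lynx1, which encodes a modulator of nicotinic receptors, at 16.2 CPM with 0.53 (SE 0.31), and Ly6g6d at 3.20 CPM with -0.42 (SE 0.91). The remaining 9 were Ly6d, Ly6i, Lypd1, Lypd2, Cd59b, Ly6g5b, Ly6g5c, Ly6g6c and Ly6g6e, each with a mean of at most 1.04 CPM. Lypd2 had no read in the 5 OSM-treated samples and reads in 3 PBS-treated samples (edgeR, unadjusted p = 0.0440), and was the only one of the 13 under 0.05. Over all genes tested, 846 of 17050 were under 0.05.

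Genes that make or share the GPI anchor were split between both directions. Of 31 genes of anchor synthesis, 18 were higher and 13 lower (median log2 fold change 0.09), and 1 had an unadjusted p under 0.05, beside 846 of the 17050 genes tested, which is no larger a share of the list than of all genes. This was Dpm2, which encodes a subunit linked to dolichol-phosphate-mannose synthesis, with a log2 fold change of 0.39 (SE 0.15). Pigq and Gpaa1, the most abundant of the list, had log2 fold changes of 0.11 (SE 0.19) and 0.19 (SE 0.17). Of 31 tested genes for other GPI-anchored proteins, 17 were higher and 14 lower with a median of 0.04. The most abundant were Prnp, the prion protein gene, with a log2 fold change of 0.08 (SE 0.10), Efna1, an ephrin gene, with 0.06 (SE 0.13), and Cdh13, which encodes T-cadherin, with -0.21 (SE 0.092). Of the 31, 2 were higher and 3 lower with an unadjusted p under 0.05, beside 2.25% and 2.71% of all genes tested. The higher ones were Bst2 and Efna2, the lower ones Cdh13, Gfra2 and Efna5, and Efna2 is named after its values were seen. Gfra2 had means of 0.0393 CPM after OSM and 4.61 CPM after PBS, Efna5 of 0.0209 and 1.25 CPM, and Efna2 of 0.351 CPM after OSM and no read after PBS, so each had a group below the level of 3 reads and no fold is given.

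Around Gpihbp1, 20 genes of the lipoprotein lipase pathway were tested, of which 5 were higher and 15 lower, with a median log2 fold change of -0.20. None had an unadjusted p under 0.05. Angptl4, an inhibitor of lipoprotein lipase, was at 605.3 CPM with a log2 fold change of 0.10 (SE 0.13), and Lmf2, related to a factor in lipase maturation, was at 206.2 CPM with 0.18 (SE 0.11). Apoe was at 289.9 CPM with -0.04 (SE 0.20). The 3 genes with the lowest p were all lower: Pcsk5 with -1.28 (SE 0.65), Furin with -0.21 (SE 0.12) and Slc27a1 with -1.01 (SE 0.59).

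Since Ly6e and Ly6a are known as interferon-inducible, interferon-stimulated genes other than the members were set beside them. Of 35 tested, 31 were higher and 4 lower in OSM-treated samples, 17 were higher with an unadjusted p under 0.05, and none was called over all genes. Over all genes tested, 8255 were higher and 8795 lower, and 2.25% were higher with an unadjusted p under 0.05. The median log2 fold change of the list was 0.53. Ifitm3, which encodes a membrane protein against virus entry, was at 650.0 ± 121 CPM (SD, n = 5) after OSM and 496.2 ± 44.3 CPM (SD, n = 6) after PBS, with a log2 fold change of 0.41 (SE 0.12). B2m, the light chain of MHC class I, had 0.41 (SE 0.13), and Bst2, which encodes the GPI-anchored tetherin, had 0.53 (SE 0.18). Ifit3 and Parp14 had 1.54 (SE 0.45) and 0.83 (SE 0.24). The 4 lower genes, named after their values were seen, were Irf1 with -0.01 (SE 0.16), Ifi27 with -0.09 (SE 0.15), Ifitm1 with -0.39 (SE 0.75) and Trim25 with -0.10 (SE 0.13). Ly6a, Ly6c1 and Ly6e had log2 fold changes of 0.53, 0.41 and 0.27. As this contrast selected the group, no likeness to the list is read from them. The summed CPM of the list ran from 2668 to 4174 after OSM and from 2124 to 3080 after PBS, so the groups overlapped. Its mean log2 CPM was 5.16, 5.52, 4.66, 5.72 and 5.86 in OSM-treated mice 1, 2, 5, 6 and 9. In PBS-treated mice 3, 4, 7, 8, 10 and 11 it was 5.27, 5.02, 4.67, 4.12, 4.80 and 4.90. Mouse 5, with the highest Ly6a and Ly6c1, was thus the lowest of the OSM-treated samples for this list. Whether the members followed the list from mouse to mouse was not tested. The 8 tested genes of the receptor and JAK list, 4 higher and 4 lower, had a median of 0.04 and ran in both directions: Ifnar1 had a log2 fold change of -0.00 (SE 0.15), Ifnar2 of 0.09 (SE 0.086), Ifngr1 of 0.28 (SE 0.17), Jak2 of -0.46 (SE 0.23) and Tyk2, the only one with an unadjusted p under 0.05, of -0.97 (SE 0.34). Ifnb1, Ifng and Ifna4 had no read. For the OSM receptor and STAT3 list, 9 of 16 genes were higher and 7 lower with a median of 0.02. At an unadjusted p under 0.05 (edgeR), 1 was higher, Timp1 with 0.47 (SE 0.21), and 1 lower, Osmr with -0.79 (SE 0.27). Over all genes tested, 2.25% were higher and 2.71% lower at that level. Socs3 had -0.46 (SE 0.22), Junb -0.04 (SE 0.12), Stat3 0.02 (SE 0.092) and Il6st 0.12 (SE 0.17).

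**Figure D5:**
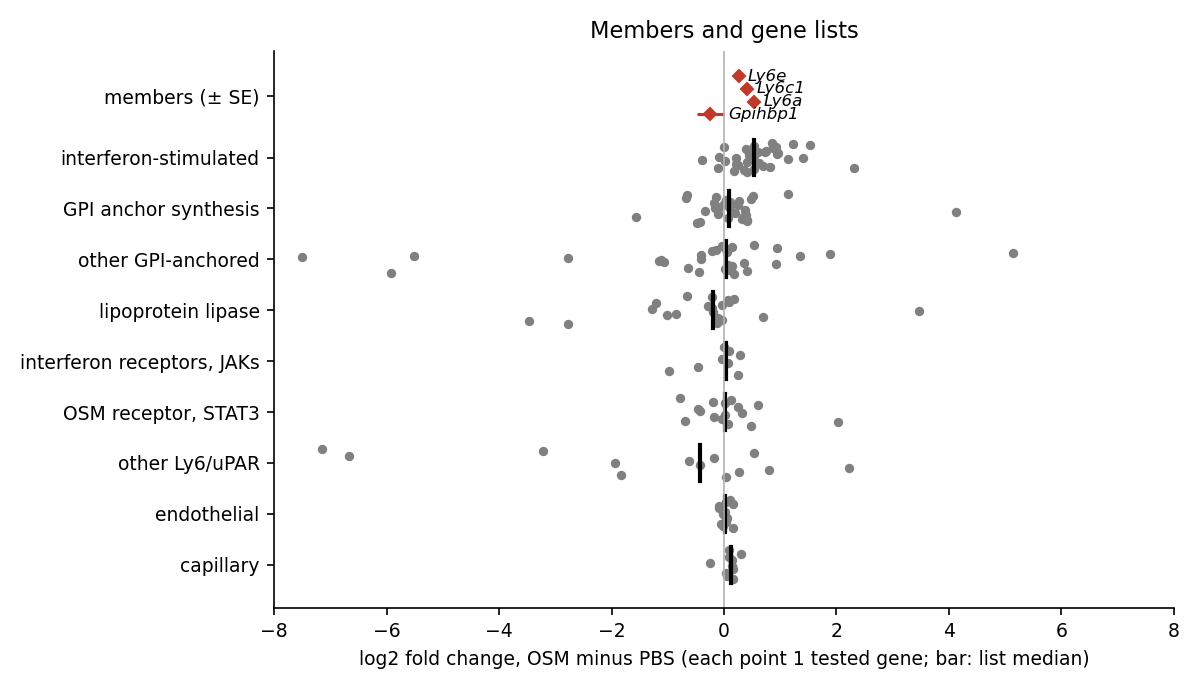
Log2 fold change of OSM minus PBS (x axis) of the members (red, ± SE) and of every tested non-member of 9 gene lists (grey points, 1 per gene, spread vertically for display), with the list median as a black bar. The interferon-stimulated list has its median at 0.53, and the medians of the endothelial and capillary lists are 0.02 and 0.12.

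Markers of vessel type and of other cells were read beside these values, since fewer cells of a type and less RNA per cell cannot be told apart in bulk samples. The values of general endothelial markers lay around 0: 9 of 15 were higher and 6 lower, the median was 0.02, and Pecam1 had 0.10 (SE 0.078) and Cldn5 0.16 (SE 0.095). Of 10 capillary markers 9 were higher, with a median of 0.12. Slc16a1, a monocarboxylate transporter of barrier capillaries, had the largest value, 0.30 (SE 0.12), and was the only one with an unadjusted p under 0.05 (edgeR). Over all genes tested, 2.25% were higher at that level. Slc2a1, the most abundant, had 0.08 (SE 0.078), and Slco1c1, the lower one, had -0.25 (SE 0.18). The medians were -0.02 over 11 arterial, -0.01 over 9 venous and -0.03 over 13 tip cell markers.

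As Ly6a and Ly6c antigens are also carried by leukocytes, blood cell genes were examined in the same way. The 12 monocyte, macrophage and microglia markers summed to 0.259 to 5.71 CPM in OSM-treated samples and to 0.266 to 24.9 CPM in PBS-treated samples, with the highest sums in PBS-treated mice 3 and 4. All 8 that were tested had a lower value after OSM, with a median of -1.32, and Ccr2, a chemokine receptor gene of Ly6C-high monocytes, had no read in any mouse. This median turned to 1.82 without litter 1. It was -3.97 without mouse 8, -3.94 without mouse 7, -2.97 without mouse 5, -2.22 without mouse 6 and -4.42 without litter 2, and -0.43 to -0.76 without mouse 1, 2, 3 or 11. The 11 leukocyte markers summed to 45.2 to 89.9 CPM after OSM and 67.7 to 192.6 CPM after PBS, and Cd3d had no read. Of the 8 tested, 4 were higher and 4 lower. At an unadjusted p under 0.05 (edgeR), 1 was higher, Itgb2 with 6.38 (SE 2.87), and 1 lower, Coro1a with -1.37 (SE 0.29). Red cell genes had the same direction as Ly6a. Of 8 tested red cell and platelet genes, 7 were higher, 5 of them with an unadjusted p under 0.05 (edgeR), beside 2.25% of all genes tested. These 5 were the red cell genes Hba-a1, Hba-a2, Hbb-bs, Hbb-bt and Alas2. The platelet genes Pf4, Gp9 and Itga2b had -0.04 (SE 1.23), 3.01 (SE 2.65) and 0.48 (SE 0.43). The median of the list was 1.11, and its sums were 369.2 to 1142 CPM after OSM and 127.0 to 614.3 CPM after PBS. The part of red cells and platelets in the values of Ly6a, Ly6c1 and Ly6e was not tested. All 12 mural markers had lower values after OSM (median -0.74), with sums of 618.1 to 1167 and 430.5 to 2286 CPM, so the groups overlapped. Of 9 rod markers 6 were higher and 3 lower, with a median of 0.53, and their sum reached 5196 CPM in OSM-treated mouse 5, the mouse with the highest Ly6a and Ly6c1. Without mouse 5 the rod median was -0.0025, and without litter 2 it was -0.80. The log2 fold changes without mouse 5 were 0.45 for Ly6a and 0.36 for Ly6c1. Müller glia markers and neuronal markers had medians of -0.04 over 9 genes and 0.01 over 11.

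The genes most like each member over the 11 mice were taken by Pearson correlation of log2 CPM with litter means removed, among 10907 genes with a mean of at least 100 normalized counts. For Ly6e they were Zfp521 (r = 0.944), Scoc (0.929) and Tmcc3 (0.912). For Ly6a they were Atxn7l3b (r = 0.963), Dpm2 (0.935) and Atp8a2 (0.926). For Ly6c1 they were Slbp (r = 0.973), Sh3gl2 (0.945) and Zfp57 (0.945). For Gpihbp1 they were Ttc33 (r = 0.930), Cox19 (0.919) and Zfp622 (0.909), and for Ly6c2, at a few reads per mouse, Oga (0.936), Aoc3 (0.919) and 5730455P16Rik (0.898). Among the members, Ly6e, Ly6c1 and Ly6a had r of 0.795 to 0.822 with one another, and after the treatment means were removed as well the values were 0.046 to 0.186. All of these are descriptions over the same 11 libraries, which share the treatment difference and the scaling. The non-member genes were picked for the highest r among 10907, so a high r follows from the search itself. Their r with treatment means removed was not examined.

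Stretches of 250 bases before the canonical transcription start of each member were searched on both strands for 4 short motifs: GAAA followed after 2 bases of any kind by GAAA again (core of the interferon-stimulated response element), TTCNNNGAA (core of the STAT-binding gamma-activated sequence), TTCCNGGAA and GGAAGT (an ETS-type core). The first 3 had no match in any of the 6 stretches and are held by 3.32%, 7.70% and 0.942% of 21757 promoters of protein-coding genes. TTCCNGGAA is a special case of TTCNNNGAA. GGAAGT was found in Ly6e, Ly6a and Ly6c2, and is held by 19.0% of all promoters. The stretches of Ly6c1 and Ly6c2 were identical at 76.8% of aligned bases, and all other pairs at 41.6% to 51.2%. The nearly complete absence of Ly6c2 reads thus went with a coding sequence and a start region that both resemble those of Ly6c1.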

How the data were processed

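The authors sorted CD31-positive, CD45-negative cells, made cDNA from poly(A) tails with PCR, sequenced single reads, aligned them with STAR to GRCm39 and assigned them to GENCODE genes with featureCounts; the deposited values are raw counts per gene. Symbols, positions and exon lengths came from GENCODE vM39 (610 of 55359 genes not found there). In 2 files the header carried another mouse number than the sample title, and the sample recorded for the file was used. Groups and litters came from the labels. The members and lists were chosen with earlier results of these data known.

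Counts were tested with edgeR 4.0.16 (R 4.3.3) by quasi-likelihood with robust estimation, TMM scaling, terms for litter and treatment, and filterByExpr with a count minimum of 10 (17050 genes), adjusted by Benjamini-Hochberg at 0.05, and checked on simulated data. Per-mouse log2 values used a prior count of 2. DESeq2 1.42.0 was an alternative. Levels were CPM per kb of merged exons, with 0.01 added before log2. Alternatives were no litter term, DESeq2 size factors, other filters, no robust estimation, thinning to the smallest library, leaving out each mouse or litter, and other lengths. Depth was 26697990 to 56033479 counts per mouse; errors are the spread between mice, as PCR copies were not collapsed. The named genes were the members, tested family genes, the 3 genes most correlated with each member, and in each list the 3 most abundant and the 3 with the lowest p, of which some are printed. Amino acid sequences and base sequences of start regions are not reported here.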

Additional observations from a re-analysis of the deposited data

Results flagged for a closer look

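Of 12 groups of mice examined for single samples that stand apart, 2 had one, both for Ly6h and both because all other mice of the group had 0 reads: OSM-treated mouse 5 at 0.0340 CPM (1 read) and PBS-treated mouse 8 at 0.258 CPM (9 reads). Chance flags about 1 in 20 groups of well-measured values, a rate that cannot be applied where a single read among zeros is enough.

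For 2 genes, litters moved in opposite directions without overlap between treatments. Gpihbp1 had a log2 difference of -0.67 in litter 2 and 0.37 in litter 3. Ly6c2 had 2.21 in litter 1 and -0.76 in litter 3, from 1 to 15 reads per mouse. The interaction of treatment and litter was tested and was not called for either (edgeR, adjusted p = 0.798 for Gpihbp1 and 0.853 for Ly6c2).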

How the results depend on the processing

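The log2 fold changes of Ly6a, Ly6c1 and Ly6e kept their direction under every alternative run. Without 1 mouse or litter at a time, Ly6a was between 0.45 and 0.59, Ly6c1 between 0.34 and 0.45 and Ly6e between 0.21 and 0.30, none called by edgeR (lowest adjusted p = 0.529). They were past the threshold with DESeq2's Wald test, at 0.52, 0.40 and 0.26, and Ly6a also in edgeR without a filter on low counts, at 0.53. Gpihbp1 was between -0.47 and 0.040, and reversed to 0.040 without litter 2. Ly6c2 was between -0.65 and 1.90, and reversed to -0.65 without litter 1. The medians of the rod markers and of the monocyte, macrophage and microglia markers reversed to -0.80 without litter 2 and to 1.82 without litter 1, respectively. Other list medians crossed 0 as well. The leukocyte median of -0.56 was 0.46 without mouse 2, and that of GPI anchor synthesis was -0.11 without mouse 4. Medians near 0 also changed sign without some mouse or litter. These were other GPI-anchored, receptor and JAK, OSM receptor and STAT3, endothelial, arterial, venous, tip cell, Müller glia and neuronal genes. The Ly6/uPAR median was 0.14 with at least 10 counts in every mouse.

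Genes called between treatments numbered 0 of 17050 in the main test, 65 of 28940 without a filter on low counts and 168 of 22014 with DESeq2's Wald test. Those with an unadjusted p under 0.05 numbered 846 of 17050 in the main test and 401 of 13742 without a litter term. They numbered 1681 of 28940 without a filter and 526 of 10350 with at least 10 counts in every mouse. Without 1 mouse or litter they ran from 554 (of 14610, without litter 3) to 915 (of 15645, without litter 2). DESeq2's Wald test had 1756, a count not limited to the 22014 genes it adjusted. As the number of genes tested differed between settings, these counts cannot be compared directly. For the litter term, 3 genes were called in the main test, 625 without a filter, 109 with at least 10 counts in every mouse, 16 with thinned libraries, 995 with DESeq2's likelihood ratio test and 0 to 44 without 1 mouse, the 44 without mouse 8. Ly6c1 passed with that DESeq2 test (adjusted p = 0.00809), and Ly6e with it (adjusted p = 3.88e-05) and without a filter (edgeR, adjusted p = 0.0409). For the interaction, 0 genes were called in the main test, 305 without a filter and 0 to 1 without 1 mouse; mouse 9 cannot be left out, as it is the only OSM-treated sample of litter 3. The cause of these shifts was not tested. For the pairs from Ly6e to Ly6c2, the mean log2 differences kept their direction under 3 other lengths, without length scaling, with DESeq2 size factors and without each mouse. The order within single mice did not always hold. Without length scaling, Ly6a was above Ly6c1 in mouse 9 (472.1 against 431.5 CPM) and mouse 10 (339.5 against 308.4 CPM). The canonical transcript and unique windows as lengths were chosen after seeing the data.

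Mouse numbers are not shared between treatments, so mice were tied to one another only through litter. Depth limits Ly6c2 and Ly6h.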
